A study of Mus musculus with 14 samples.

Results

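The genes described here encode neuronal cell adhesion proteins of 3 related groups, the contactins (Cntn1, Cntn3, Cntn4 and Cntn5), the contactin-associated proteins (Cntnap1, Cntnap2, Cntnap4 and Cntnap5a) and the L1 group (Chl1 and Nrcam). Members were chosen by symbol in the platform annotation, from a list of 10 drawn up with earlier results of these same arrays known. Their levels in the pools and the differences between pools therefore count as the values that chose them, and are given as a description. Of the 10 genes, 8 had a probe set under their symbol, and Cntnap1 and Cntnap4 were not analysed here. The 8 genes stand among 16244 on the arrays and 4409 that reached a mean log2 signal of 5 in at least 1 pool. All 8 passed that filter, Cntn4 through I2 alone and Cntn3 and Cntnap5a through E1, E2 and I1b alone.

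The cells were single neurons of the medial vestibular nucleus, which receives head motion signals in the brainstem, from mice of the YFP-16, GIN and GlyT2-13 lines on a C57BL/6 background at postnatal days 24 to 32. These are transgenic reporter lines, in which fluorescence marks a part of the neurons. Amplified cDNA of each cell was assigned to a type by transmitter genes, ion channels and marker genes, and cDNA of a type was then pooled. The number of cells in a pool is not given in the sources used here. The excitatory types E1 and E2 and the inhibitory types I1a, I1b, I2, I3a and I3b are covered, with 1 pool each and 2 technical replicate arrays per pool, which makes 14 arrays. Lines, background strain and age are labelled alike for every pool. Since each type is 1 pool, the spread between its arrays is technical, and fewer expressing cells in a pool and less RNA per cell cannot be told apart.

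Contactins are immunoglobulin-type proteins held on the outer membrane by a lipid anchor. They bind contactin-associated proteins, which span the membrane, on the same cell. Contactin 1 forms with the protein of Cntnap1 the junction between axon and myelin beside the node of Ranvier, and the protein of Cntnap2 holds voltage-gated potassium channels next to it. The L1 group binds ankyrin inside the cell, and the protein of Nrcam sits at nodes and axon initial segments, where action potentials start. Chl1, the close homologue of L1, acts in axon growth and guidance. Cntn3, Cntn4 and Cntn5 are best known from neurite growth and the wiring of sensory pathways.

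The transmitter genes described next belong to the kinds of gene by which cells were assigned to types, so they check the labels only in part. All 3 neuronal markers on the arrays read above 5 in every pool, with Snap25, a protein of transmitter release, at 12.40 to 13.57. The others were less even, Rbfox3 between 10.78 in E2 and 5.39 in I3b and Syt1 between 11.47 in E2 and 6.68 in I3a, and the part of this in the results was not tested. The excitatory marker Slc17a6, a vesicular glutamate transporter, read 11.11 in E1 and 10.98 in E2. It also read 10.48 in I1b, 8.60 in I1a and 6.93 in I3a, although these pools carry inhibitory labels, against 3.11 in I2 and 3.19 in I3b. The other excitatory marker on the arrays, Slc17a7, read 2.39 in both E pools and at most 2.82, in I1b. The inhibitory marker Slc32a1, a vesicular transporter of GABA and glycine, read 6.60 in E1 and 5.41 in E2, and 9.20 to 9.76 in the I pools, I1b included. The other inhibitory markers were also higher in every I pool than in the E pools, but not all low in the latter. Gad1 read 7.80 in E1 and 6.80 in E2, Gad2 5.72 and 6.43, and Slc6a5 6.31 and 3.33. None of the 4 astrocyte, 4 oligodendrocyte precursor, 2 microglia and 1 endothelial markers on the arrays reached 5 in any pool. Of 5 oligodendrocyte markers, Mog, Mag and Mobp stayed at 2.97 or below. Mbp read 5.50 in I1b and 6.20 in I3a, against at most 3.43 elsewhere, and Cnp read 6.62 and 9.14 in the same 2 pools, against at most 5.49. Whether this bears on the members was not tested. Between arrays of a pool r over the 4409 genes was at least 0.981, and 15.1% to 16.4% of probe sets reached 5 on an array. For the control gene Gapdh, the probe set at the 5′ end read 5.62 to 6.04 log2 units below that at the 3′ end. A low reading is therefore not taken as absence of a transcript. The beta-actin control read 2.23 higher at the 3′ end than at the 5′ end in I2, and 1.25 to 1.34 higher elsewhere. The control LysX-3 read 10.37 to 10.84 in E1, E2, I1a and I1b, and at least 11.51 in I2, I3a and I3b. DapX-3 read 4.57 to 5.09 and at least 5.86 in the same sets of pools. BioB-3 read 7.74 (I2) to 9.62 (I3a), without this split. I1 against I3 runs along the split, and the part of this in the results was not tested.

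On chromosome 6 the protein-coding genes Cntn3, Chl1, Cntn6 and Cntn4 follow each other directly in the RefSeq annotation of GRCm38.p6. Cntnap2 lies elsewhere on that chromosome. Of the 3 members of this run, Chl1 and Cntn4 both had their highest mean in I2, with I1b next, and had r = 0.804 over the pool means. Cntn3 was highest in E1, E2 and I1b. RefSeq start regions, 300 bases long from 250 before to 50 after a transcript start, were available for 7 of the members, with 12 entries in all. They are printed for these 3 genes and for Cntn5, which was highest in the I3 pools. Where a gene has several starts, the most upstream one is shown. Each sequence runs 5′ to 3′ on the strand of its gene in lower case. Capitals mark matches on either strand to TATAAA (the TATA box), GGGCGG (the GC box), CCAAT (the CCAAT box), CANNTG (the E-box) or TGACGTCA (the cyclic AMP response element), and no marked matches overlapped in these windows.
Cntn3 (chr6:102464618-102464917, minus strand): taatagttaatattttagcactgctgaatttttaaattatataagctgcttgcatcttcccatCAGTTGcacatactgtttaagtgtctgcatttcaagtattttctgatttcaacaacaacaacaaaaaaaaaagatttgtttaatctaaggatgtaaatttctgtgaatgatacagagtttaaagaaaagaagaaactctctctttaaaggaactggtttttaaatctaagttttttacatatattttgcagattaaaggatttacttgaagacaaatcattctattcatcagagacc
Chl1 (chr6:103510626-103510925, plus strand): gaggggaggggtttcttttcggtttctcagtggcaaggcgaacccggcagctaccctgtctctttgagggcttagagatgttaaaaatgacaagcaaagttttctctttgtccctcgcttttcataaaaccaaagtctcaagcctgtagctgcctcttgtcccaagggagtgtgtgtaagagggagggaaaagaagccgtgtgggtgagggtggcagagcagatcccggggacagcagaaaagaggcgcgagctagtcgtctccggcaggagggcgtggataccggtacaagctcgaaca
Cntn4 (chr6:106118515-106118814, plus strand): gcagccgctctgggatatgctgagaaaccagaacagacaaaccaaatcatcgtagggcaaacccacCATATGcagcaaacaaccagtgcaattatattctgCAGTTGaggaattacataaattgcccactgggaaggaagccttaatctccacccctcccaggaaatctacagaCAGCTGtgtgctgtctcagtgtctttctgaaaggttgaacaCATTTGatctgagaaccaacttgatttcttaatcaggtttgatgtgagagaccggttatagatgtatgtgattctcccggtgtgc
Cntn5 (chr9:10904726-10905025, minus strand): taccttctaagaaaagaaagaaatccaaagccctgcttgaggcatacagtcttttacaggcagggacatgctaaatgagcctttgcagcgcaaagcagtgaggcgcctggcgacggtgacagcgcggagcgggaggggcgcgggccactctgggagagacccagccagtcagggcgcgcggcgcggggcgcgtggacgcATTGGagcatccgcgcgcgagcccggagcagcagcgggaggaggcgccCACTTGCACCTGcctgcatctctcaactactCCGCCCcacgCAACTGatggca

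The window of Cntn3 was the poorest in G and C, at 27.7%, with 0 CpG pairs. It held 1 E-box, whose first base lies at position -187 from the start. That of Chl1 had 53.7% G and C and 13 CpG pairs and none of the 5 motifs. The window of Cntn4 had 45.0% G and C, 4 CpG pairs and 4 E-boxes. The window of Cntn5 had 63.7% G and C, 26 CpG pairs, 3 E-boxes, 1 CCAAT box and 1 GC box. Over all 32851 windows of this length in the table, the median was 52.7% G and C and 7 CpG pairs. An E-box was held by 72.3% of them, a CCAAT box by 37.4%, a GC box by 35.7%, a TATA box by 13.6% and the cyclic AMP response element by 1.8%. The matches describe letters only and no binding was measured.

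**Figure D1:**
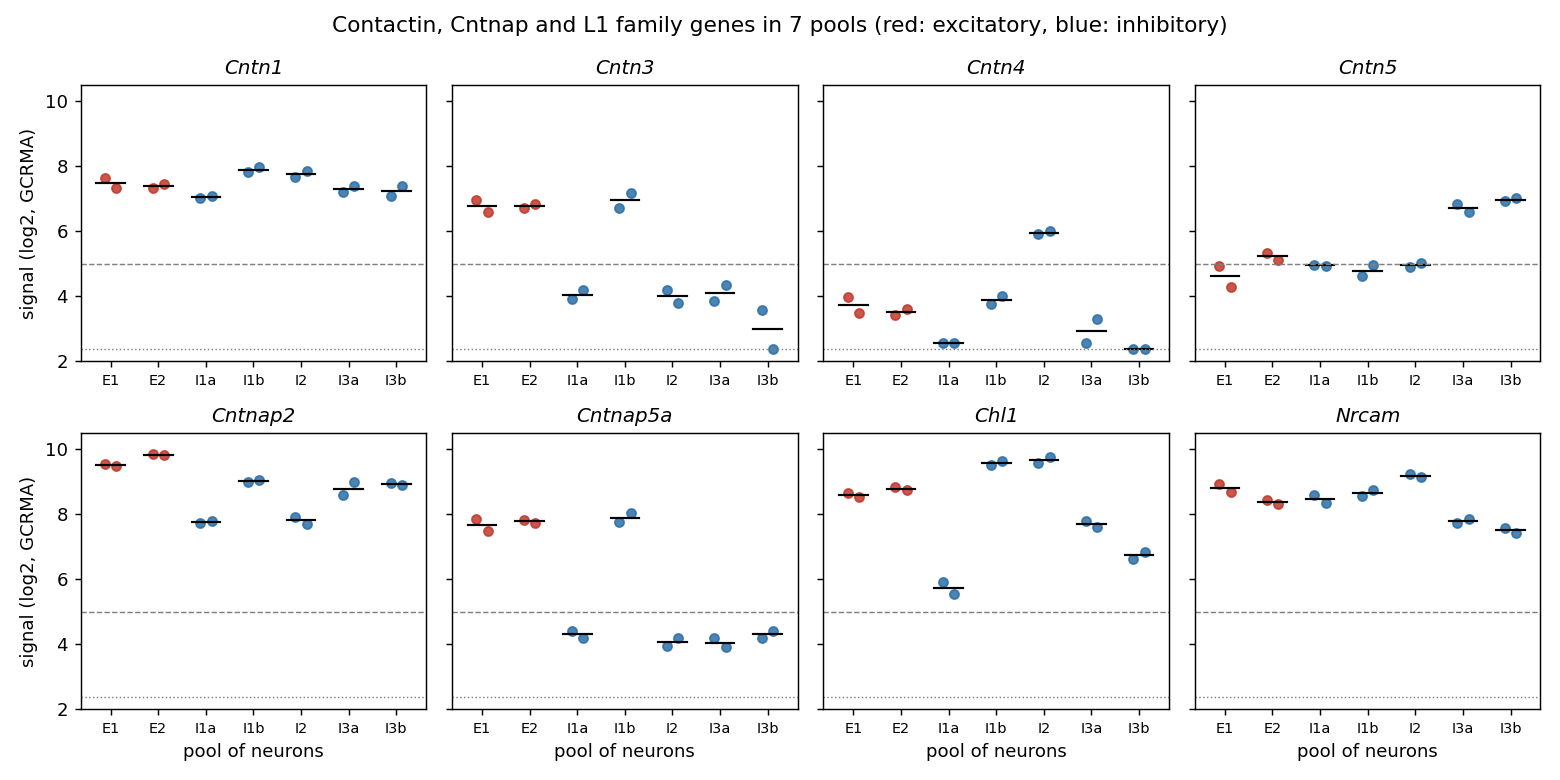
Log2 signal (vertical axis) of the 8 genes in the 7 pools (horizontal axis). Each dot is 1 of the 2 arrays of a pool, each bar the pool mean, red excitatory and blue inhibitory. The dashed line is the filter at 5 and the dotted line the floor of the scale at 2.39. Cntnap5a and Cntn3 stand high in E1, E2 and I1b, Cntn4 in I2 and Cntn5 in I3a and I3b.

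Among the contactins, Cntn1 varied least. Its arrays read 7.62 and 7.32 in E1, and 7.33 and 7.44 in E2. In the I pools I1a had 7.02 and 7.08, I1b had 7.82 and 7.98, and the arrays read 7.68 and 7.84 in I2, 7.22 and 7.40 in I3a, and 7.07 and 7.41 in I3b. The order was I1b, I2, E1, E2, I3a, I3b and I1a, with overlap between the arrays of every pair of neighbours except I2 and E1. The pool means spanned 0.85 log2 units, against a median span of 1.13 over the 4409 genes. A second probe set of Cntn1 stayed between 3.38 and 4.05.

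Cntn3, a contactin known from the rat to promote neurite growth in culture, took 2 levels. It read 6.95 and 6.59 in E1, 6.72 and 6.83 in E2, and 6.72 and 7.18 in I1b. The other inhibitory pools read 3.91 and 4.19 in I1a, 4.20 and 3.80 in I2, 3.86 and 4.34 in I3a, and 3.58 and 2.39 in I3b. All 6 arrays of E1, E2 and I1b lay above all 8 of the others, and the lowest of the 6 was 2.25 log2 units above the highest of the 8. Within the upper set the arrays of neighbouring pools overlapped, and so did those of I3a, I1a and I2. The lower of the I3b arrays lay at the floor of the scale, so the level of that pool is the least certain. The single probe set of Cntn3 is of the x type, which on these arrays marks probes that may also bind other transcripts.

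Cntn4, an axonal contactin known from the guidance of olfactory and visual axons, passed 5 in I2 alone. Its arrays there read 5.92 and 6.01. The excitatory pools read 3.97 and 3.49 in E1 and 3.43 and 3.63 in E2, and I1b read 3.76 and 4.01. I3a read 2.56 and 3.31, I1a 2.56 on both arrays and I3b 2.39 on both arrays, which is the floor. Exactly the same value, 2.56, recurred on 3 arrays, both of I1a and 1 of I3a, so these readings carry no order. The lower I2 array was 1.91 log2 units above the highest array of any other pool. By the rule that both arrays of I2 lie at least 1 log2 unit above every other array, 132 of 4409 genes (2.99%) were restricted to I2, and by this gap Cntn4 was number 41 of them. It was the 1 member that met this rule, and nothing is read from that, as it passed the filter through I2 alone. The second probe set of Cntn4 did not pass 2.91 on any array, so the I2 level rests on 1 probe set.

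Cntn5, a contactin found in sensory pathways such as the auditory brainstem of the mouse, was highest in the I3 pools. Its arrays read 6.84 and 6.59 in I3a and 6.94 and 7.01 in I3b. They read 4.93 and 4.30 in E1 and 5.33 and 5.13 in E2. Of the remaining inhibitory pools, I1a had 4.98 and 4.95, I1b had 4.62 and 4.95, and I2 had 4.92 and 5.02. Every I3 array was at least 1.27 log2 units above every array of the other 5 pools. Both I3 pools stood at least 1 log2 unit above all other arrays in this way for 21 of 4409 genes (0.476%), and Cntn5 was the 1 member among them, from which nothing is read. I3b and I3a did not overlap with each other, nor did E2 with I2 below them, while I2, I1a, I1b and E1 overlapped in sequence.

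Cntnap2, whose protein binds 4.1 proteins inside the axon and contactin 2 outside it, was the most even of the contactin-associated proteins. It read 9.55 and 9.49 in E1 and 9.85 and 9.83 in E2, above every I array. Then followed I1b with 8.99 and 9.05, I3b with 8.97 and 8.91 and I3a with 8.58 and 8.99. I2 with 7.93 and 7.70 and I1a with 7.73 and 7.78 were lowest and overlapped. A gap of 0.97 log2 units set these 2 pools apart from the other 5. E2 against E1, and E1 against I1b, did not overlap. It was the 1 of 8 members whose E and I pool means did not overlap, near the share of all genes (537 of 4409, 12.2%). Of those 537 genes, 264 (5.99% of 4409) were higher in the E pools, as Cntnap2 was.

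Cntnap5a, a less studied brain member of the family, showed the widest single gap. Its arrays read 7.84 and 7.49 in E1, 7.84 and 7.72 in E2, and 7.76 and 8.03 in I1b. They read 4.42 and 4.20 in I1a, 3.96 and 4.20 in I2, 4.20 and 3.91 in I3a, and 4.20 and 4.42 in I3b. The lowest array of the upper 3 pools was 3.07 log2 units above the highest of the lower 4. Within each of these 2 sets the arrays of neighbours overlapped, so no order was read there. Exactly the same value, 4.20, recurred on 4 arrays of the lower pools, and 4.42 on 2, so these readings carry no order.

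The rule that all arrays of E1, E2 and I1b lie at least 2 log2 units above all arrays of the other 4 pools, written after the values were seen, was met by 4 of 4409 genes (0.0907%). The rule follows the pattern of the members themselves, so nothing is read from that share. These genes were Cntnap5a, Cntn3, Nrn1, a surface protein of neurite growth, and Scn4b, a sodium channel subunit. Nrn1 read 8.20 in E1, 8.24 in E2 and 7.25 in I1b, with I1a next at 5.07. Scn4b read 10.15, 9.62 and 9.75 in the same 3 pools, with I1a next at 7.45. In I1a the arrays of Cntnap5a and Cntn3 lay within the range of those of I2, I3a and I3b, while those of Nrn1 and Scn4b lay above that range. Slc17a6 was also highest in these 3 pools, followed by I1a. Its part in the pattern was not tested.

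**Figure D2:**
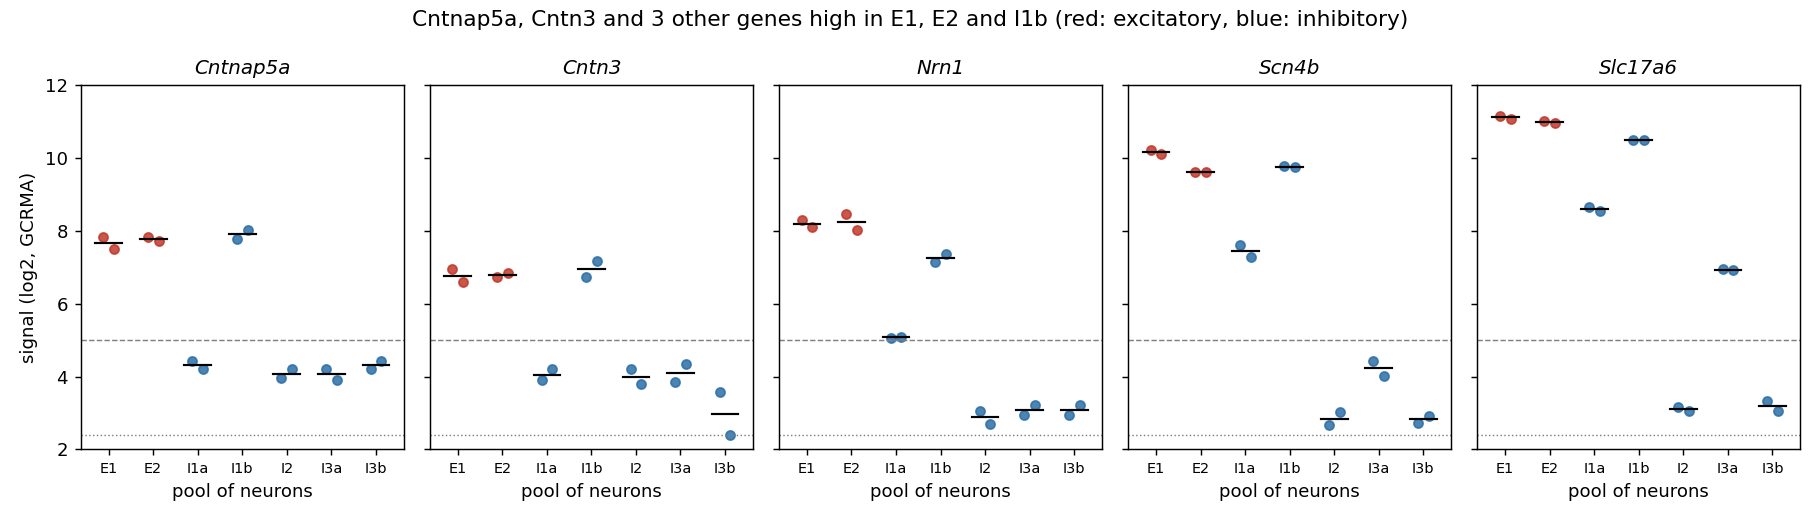
Log2 signal (vertical axis) in the 7 pools (horizontal axis) of Cntnap5a, Cntn3, Nrn1, Scn4b and Slc17a6. Dots are arrays, bars pool means, red excitatory and blue inhibitory, the dashed line 5 and the dotted line the floor at 2.39. In I1a Cntnap5a averaged 4.31 and Cntn3 4.05, while Scn4b averaged 7.45 and Slc17a6 8.60.

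Chl1 of the L1 group had the most graded pattern. It read 8.66 and 8.52 in E1 and 8.83 and 8.74 in E2. Its highest arrays were those of I2, at 9.58 and 9.76, and of I1b, at 9.51 and 9.64. I3a read 7.81 and 7.61, I3b 6.63 and 6.85, and I1a 5.91 and 5.55. The pool means spanned 3.94 log2 units, a 15.4-fold range. I2 and I1b overlapped, and no other neighbours in the order I2, I1b, E2, E1, I3a, I3b and I1a did. A second probe set read 3.52 or below on every array.

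Nrcam was measured by 4 probe sets, of which 2 passed 5. The brighter read 8.94 and 8.70 in E1, 8.44 and 8.31 in E2, 8.58 and 8.76 in I1b, 8.60 and 8.35 in I1a, and 9.22 and 9.15 in I2. Its arrays read 7.73 and 7.84 in I3a and 7.57 and 7.44 in I3b, below every array of the other 5 pools. E1, I1b, I1a and E2 overlapped in sequence between I2 above and the I3 pools below. The next probe set gave the same picture, with r = 0.972 over the 7 pool means and a signal 0.59 to 0.98 lower. The other 2 probe sets stayed at 3.17 or below. Over all 8 members 14 probe sets were present, and the 5 under 5 on every array read 2.39 to 4.05.

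**Figure D3:**
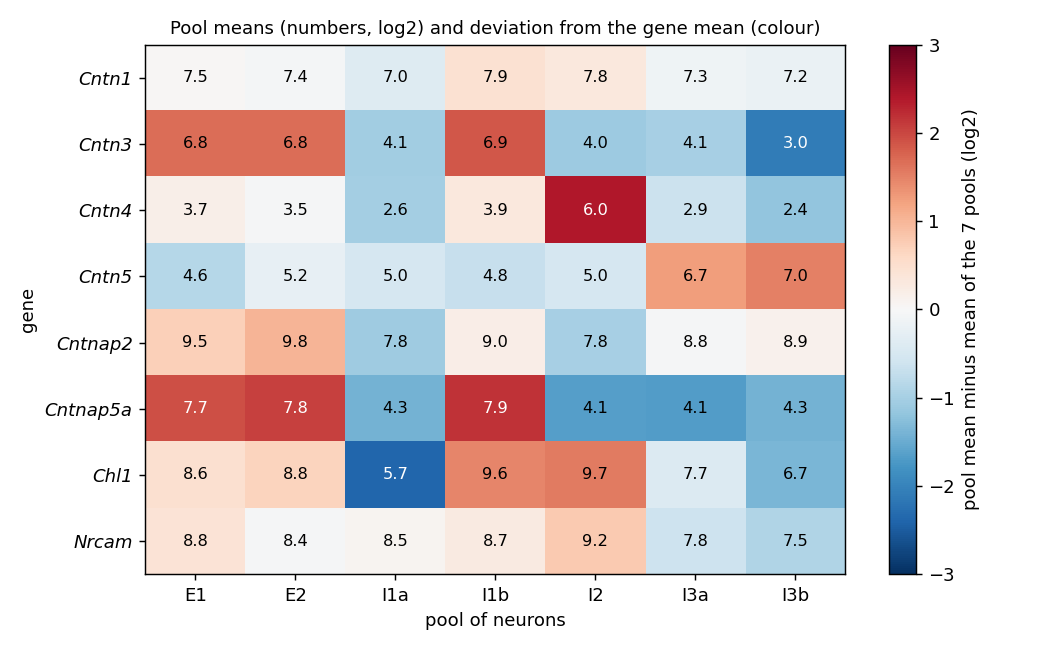
Pool means of log2 signal (numbers) for the 8 genes (rows) in the 7 pools (columns), coloured by the deviation from the mean of that gene over the pools. Levels are comparable along a row and not between rows. Chl1 ranges from 5.7 in I1a to 9.7 in I2, Cntnap5a from 4.1 in I2 and I3a to 7.9 in I1b.

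The excitatory types were set against the inhibitory types with limma on the 7 pool means. Cntnap5a averaged 7.72 in the E pools and 4.93 in the I pools, a difference of 2.79 (SE 1.02). Cntn3 averaged 6.77 in the E pools and 4.42 in the I pools, a difference of 2.36 (SE 0.92). For both genes the mean of I1b lay above those of both E pools and the other 4 I pools below, so the E and I pools overlapped. Cntnap2 averaged 9.68 in the E pools and 8.46 in the I pools, a difference of 1.21 (SE 0.42). The other 5 members differed by -0.76 (Cntn5) to 0.80 (Chl1), less than their standard deviation among the I pools. Calls needed 1 log2 unit or more and, over all 4409 genes, a Benjamini-Hochberg adjusted p under 0.05. By limma 0 of the 8 members were called and 3 (Cntn3, Cntnap2 and Cntnap5a) had an unadjusted p under 0.05, where 1 of 4409 genes (0.0227%) was called and 273 had such a p. The median difference was 0.54 over the members and -0.01 over all genes. As the list was drawn up with these differences known, nothing is read from the members' counts or median.

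Without I1b, Cntnap5a differed by 3.53 and was called, the 1 gene called over all genes. Without I1b and I3a, the pools with the most Mbp and Cnp, Cntnap5a differed by 3.49 and was called, with 2 called over all genes. Its levels were known when it was chosen, and it passed the filter through E1, E2 and I1b alone. Nothing is read from these calls. The arrays of I1b overlapped with those of the E pools for 5 of the 8 members and for 2859 of 4409 genes (64.8%), so the members' count is near that of all genes. The I1b mean differed from the E mean by 0.18 for Cntn3 and 0.17 for Cntnap5a. It differed by -0.66 for Cntnap2 and by 0.89 for Chl1. Single pools moved the other members too, and the E against I difference of Chl1 was 0.26 without I1a and that of Cntn4 0.69 without I2.

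Of the inhibitory families, I1 was set against I3, with 2 pools each and 3 residual degrees of freedom. Cntn5 averaged 4.87 in I1 and 6.85 in I3, a difference of -1.97 (SE 0.29), with no overlap. Nrcam averaged 8.57 in I1 and 7.64 in I3, a difference of 0.93 (SE 0.26), also with no overlap. Cntn3 and Cntnap5a had differences of 1.96 (SE 0.94) and 1.92 (SE 1.08), and came to 0.51 and 0.13 without I1b. By limma on pool means 0 of 8 members were called and 2 (Cntn5 and Nrcam) had an unadjusted p under 0.05, where 0 of 4409 genes (0%) were called and 496 had such a p. Fitted on the 14 arrays with pools as a random block, the comparison called 1 member, Cntn5, and 114 of 4409 genes. That fit takes technical replicate arrays as its points, so nothing is read from its calls. Nor is anything read from the members' counts, as the list was drawn up with results known. The sign of 3 members, Chl1, Cntn1 and Cntn4, turned without I1b, where Chl1 came to -1.50, against 0.43 with all pools. Chl1 also turned without I3b, to -0.06, and Cntnap2 without I1a, to 0.16, against -0.48.

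The paired pools were compared on arrays, so errors here are technical and speak of these pools alone. Between E1 and E2 the largest differences of members were -0.61 for Cntn5 (SE 0.21) and 0.44 for Nrcam (SE 0.12). Single arrays moved Cntn5, to -0.93 without E1 replicate 1 and to -0.30 without E1 replicate 2, and with values under 5 set to 5 it came to -0.23. By limma 0 of 8 were called, with 3 at an unadjusted p under 0.05, where 326 of 4409 genes (7.39%) were called and 1685 had such a p.

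Between I1a and I1b several members stood well apart. Chl1 averaged 5.73 in I1a and 9.57 in I1b, a difference of -3.85 (SE 0.14). Cntnap5a differed by -3.59 (SE 0.19), Cntn3 by -2.90 (SE 0.34), Cntn4 by -1.33 (SE 0.26) and Cntnap2 by -1.27 (SE 0.13). These 5 of 8 members were called, all lower in I1a, where 579 of 4409 genes (13.1%) were called. As the list was drawn up with these differences known, nothing is read from the share. I1a and I1b also differed in Slc17a6 (8.60 and 10.48), Mbp (2.43 and 5.50) and Cnp (4.93 and 6.62), and the part of these in the result was not tested. The median of all genes was itself -0.22 in this comparison. With arrays centred on their median, the 5 differences were -3.60 for Chl1, -3.34 for Cntnap5a, -2.66 for Cntn3, -1.08 for Cntn4 and -1.02 for Cntnap2, all called. After quantile normalization Cntnap2 came to -0.96, under the size threshold. Nrcam, at -0.19, had a sign that turned under either rescaling. Both pools read Cntn4 under 5, and with values under 5 set to 5 it showed no difference.

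Between I3a and I3b, Cntn3 was the 1 member called of 8, higher in I3a by 1.12 (SE 0.34), where 437 of 4409 genes (9.91%) were called. All its arrays in these pools were under 5 and 1 lay at the floor, and the difference was 0.52 without I3b replicate 2 and 1.72 without I3b replicate 1. The call ended with values under 5 set to 5, without a filter on low values, without I3a replicate 2 and without I3b replicate 2. Chl1 averaged 7.71 in I3a and 6.74 in I3b, a difference of 0.97 (SE 0.14) that missed the size threshold and passed it, at 1.07, after either rescaling. With the mean of all probe sets of a gene, which takes in the dim second one, Chl1 differed by 0.49 here and by -2.29 between I1a and I1b. The other 6 members differed by -0.26 to 0.55.

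**Figure D4:**
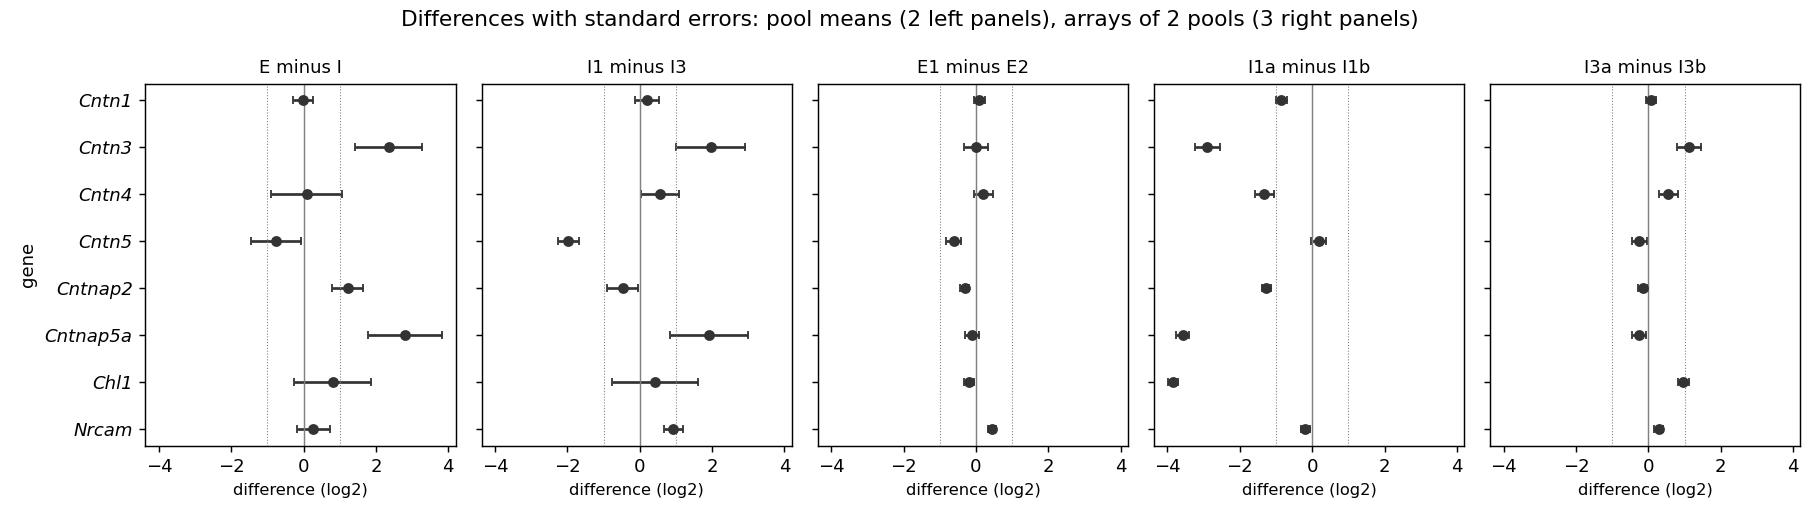
Difference in log2 signal (horizontal axis) of each of the 8 genes (vertical axis) in 5 comparisons, first-named group minus second. Bars are standard errors of the limma fits, from pool means in the 2 left panels and from technical replicate arrays in the 3 right panels, and dotted lines mark 1 log2 unit. Chl1, Cntnap5a and Cntn3 lie at -3.85, -3.59 and -2.90 in I1a minus I1b.

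The 6 members that spanned at least 2 log2 units over the pools were set against the other 857 genes that did so, by Pearson's r over the 7 pool means. These r are descriptive, since the points share pools and arrays, and many genes reach high values with 7 points. The gene most like Cntn3 was Cntnap5a (r = 0.966), followed by Met, a receptor tyrosine kinase (0.965), and Unc13c, a priming factor of vesicle release (0.963), with 20 genes (2.33%) at 0.9 or more. For Cntnap5a the first 3 were Met (0.972), Cntn3 (0.966) and Prkg2, a cyclic GMP-dependent kinase (0.958). Met read 5.76 in E1, 6.40 in E2 and 6.28 in I1b, against at most 3.88 in the other pools.

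Cntn4 was most like Pde2a, a cyclic nucleotide phosphodiesterase (0.982), Galntl6 (0.976) and Sgms2, a sphingomyelin synthase (0.975), all highest in I2. Cntn5 was most like Gm17750 (0.987), Acly, which makes acetyl-CoA from citrate (0.972), and Tns3, a focal adhesion protein (0.968). Chl1 was most like Pde4b, a cyclic AMP phosphodiesterase (0.951), Snapc2 (0.939) and Leprot (0.930), with 5 genes at 0.9 or more. Cntnap2 had 2 genes at that level, Hpcal1, a neuronal calcium sensor (0.933), and Mrpl32 (0.928), and then Ell2 (0.887). Among the members themselves, Chl1 and Cntn1 had r = 0.922 and Cntn5 and Nrcam -0.910.

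Genes of the same families outside the list were given for comparison. Of 7 such genes 4 were on the arrays. Cntn2, the partner of the Cntnap2 protein at juxtaparanodes, was at 2.42 or below in every pool mean, and Cntn6 at 4.16 or below. Neither passed the filter, which is not taken as absence of the transcripts. L1cam, the founder of the L1 group, averaged 7.49 in E1 and 8.46 in E2, and 8.18 (I1b) to 8.93 (I3b) in the I pools. Nfasc, the neurofascin of nodes and initial segments, averaged 7.01 in E1 and 7.17 in E2, and 6.69 (I1a) to 7.18 (I1b) in the I pools. Neither was called in any of the 5 comparisons.

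Genes of the axon initial segment, node, paranode and juxtaparanode were kept for 18 of 26 listed. Many of them are ion channel genes, a kind of gene by which cells were assigned to types. Their counts, calls and medians are therefore a description, and nothing is read from them. In E against I none was called, 15 of 18 had positive differences and the median was 0.49, against -0.01 over all genes. Epb41l3, the 4.1 protein that binds Cntnap proteins, averaged 9.22 in E1, 8.79 in E2 and 9.07 in I1b, with 8.07 in I1a and 7.05 to 7.30 in I2, I3a and I3b. Its difference of E against I was 1.26 (SE 0.54, limma adjusted p 0.753). Kcna1 and Kcna2, the potassium channels held by the Cntnap2 protein, were likewise lowest in I2, I3a and I3b, at 5.26 to 6.40 and 7.95 to 8.30. Between I1a and I1b, 5 of the 18 were called, all lower in I1a, where 13.1% of all genes were called, with Kcnab1, a subunit of these channels, at -3.37 (SE 0.29, limma adjusted p 4.90e-06) and Scn4b at -2.30 (SE 0.18, limma adjusted p 2.34e-06). The median there was -0.82, against -0.22 over all genes. Between I3a and I3b 2 were higher and 1 lower, where 9.91% of all genes were called. Between E1 and E2 2 were higher and none lower, Kcnq3 by 1.66 and Kcnab1 by 1.57, where 7.39% of all genes were called. In I1 against I3 none was called, 14 of 18 were positive and the median was 0.66. Scn2a was negative there, at -2.25 (SE 0.49). Opposite to Kcna1 and Kcna2, it was highest in I2, I3a and I3b, at 9.59 to 10.34, against 6.73 to 8.18 in the other pools.

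Binding partners outside the cell and signalling partners were kept for 10 of 19 listed. Ptprz1, a receptor phosphatase that binds contactin 1, averaged 9.80 in I2, 7.48 in E1 and 5.48 to 6.56 elsewhere, and was higher in E1 than in E2 by 2.0 (SE 0.14, limma adjusted p 2.01e-06). Tnr, the matrix protein tenascin R and a ligand of contactin 1, averaged 2.61 in I2, near the floor, and 5.61 to 7.77 elsewhere. It was higher in I3a than in I3b by 2.16 (SE 0.18, limma adjusted p 4.34e-06). Those were the only partners called in any comparison, 1 of 10 in each of the 2 pairs and 0 of 10 in the other 3. The count of 1 in 10 is near the share of all genes called, 7.39% between E1 and E2 and 9.91% between I3a and I3b. Mpdz, a scaffold with many PDZ domains, differed by -1.57 between I1 and I3 and Fyn, a kinase that signals below contactin 1, by -1.72, both uncalled.

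Of 18 other neuronal adhesion genes 8 were kept. Opcml, a lipid-anchored adhesion protein, was called in 2 comparisons, lower in E1 than in E2 by a difference of -1.54 (SE 0.17, limma adjusted p 4.75e-05) and higher in I3a than in I3b by 2.25 (SE 0.17, limma adjusted p 1.55e-06). Opcml was the 1 of 8 called in each of these pairs, where 7.39% of all genes were called between E1 and E2 and 9.91% between I3a and I3b. Nothing is read from these counts. None of the 8 was called in the other 3 comparisons. Ncam1, the neural cell adhesion molecule, had a difference of -1.43 in E against I (SE 0.53, limma adjusted p 0.753), with 5.65 in E1 and 6.60 in E2 and 6.75 (I1a) to 8.47 (I2) in the I pools. The median of the list was -0.19 in E against I and -0.35 in I1a against I1b, against -0.01 and -0.22 over all genes.

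**Figure D5:**
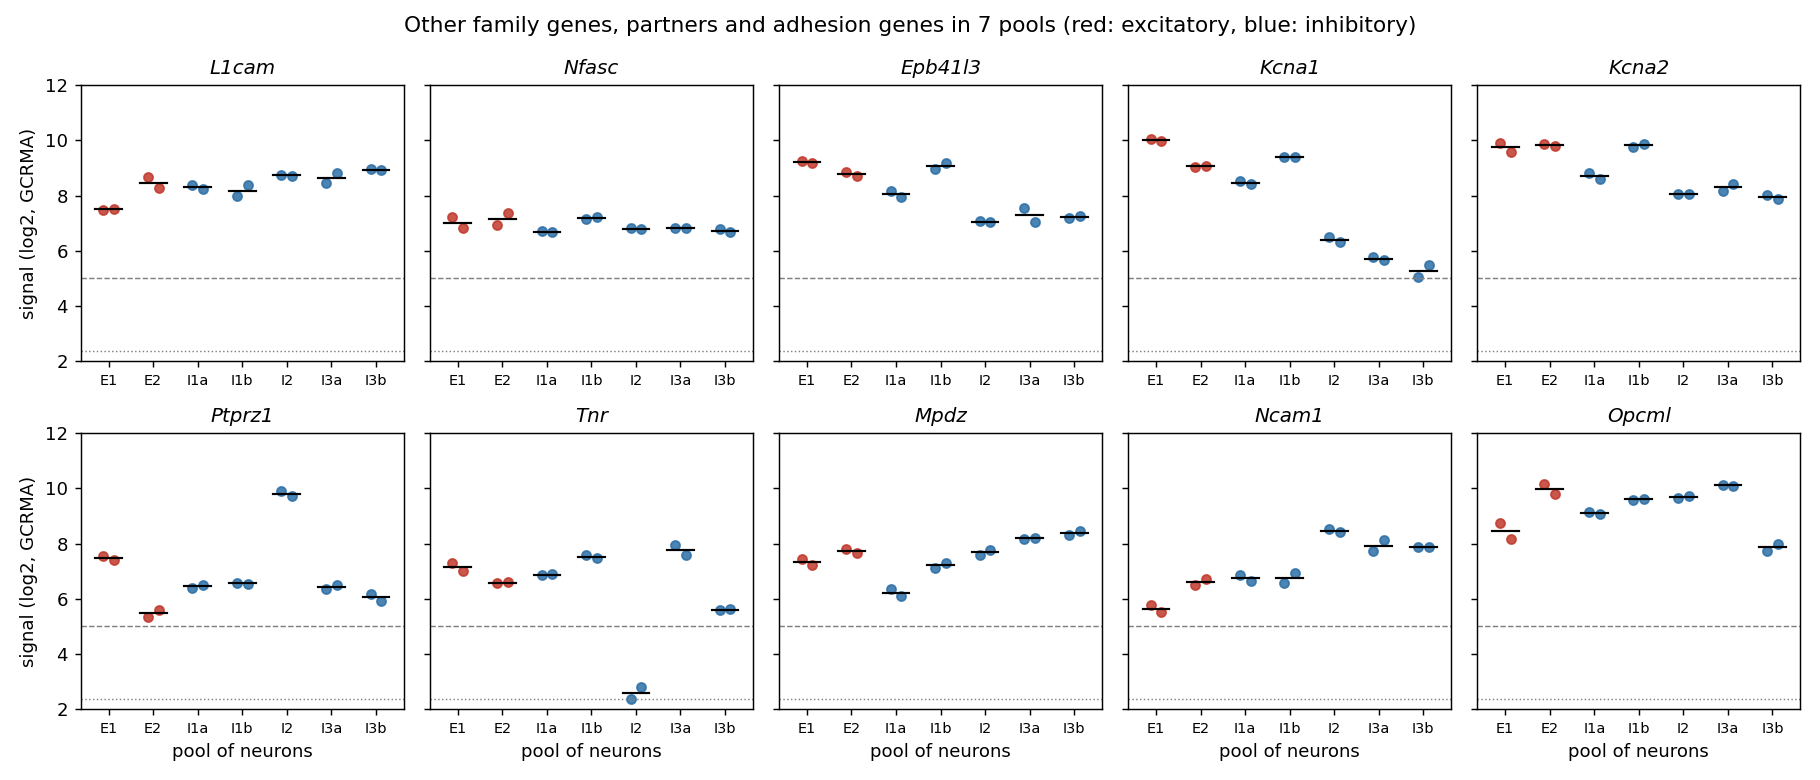
Log2 signal (vertical axis) in the 7 pools (horizontal axis) of L1cam and Nfasc, of Epb41l3, Kcna1 and Kcna2 at the axon, of the partners Ptprz1, Tnr and Mpdz, and of Ncam1 and Opcml. Dots are arrays, bars pool means, red excitatory and blue inhibitory, the dashed line 5 and the dotted line the floor at 2.39. In I2, Ptprz1 averaged 9.80 and Tnr 2.61.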

How the data were processed

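The authors' deposited values are log2 signals per probe set, made with affy and GCRMA (background adjustment, normalization between arrays, summary of probes) per the submitters' processing notes. Versions are not given in the sources used here. The log2 scale was read from the usual output of that method and the range of the values, 2.39 to 15.9. Of 30843 probe sets, 24034 have 1 symbol, and 23883 of these matched RefSeq (GRCm38.p6) by Entrez identifier. Each gene took its probe set with the highest mean, and genes with a pool mean of at least 5 were kept.

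E against I (5 residual degrees of freedom) and I1 against I3 (3) were fitted on pool means, and the pairs on 14 arrays (7), with limma 3.58.1 in R 4.3.3 (lmFit, eBayes with an intensity trend, Benjamini-Hochberg over all genes). The fits were also run on simulated data with large planted differences, which checks the code and does not measure power or error in these data. Motifs and figures used Python 3.11.15, pandas 2.3.3 and matplotlib 3.10.9. Members, lists and comparisons were chosen with earlier results of these data known. All members are named. From each list up to 4 genes per comparison were eligible, called ones or, where none was called, those of at least 1 log2 unit, together with the 3 genes most like each member. Family genes, Kcna2, Tnr and Ptprz1 levels, Nrn1 and Scn4b in the rule on 3 pools were named after their values were seen. The number of pools, 7, limits the precision. The replicate number was not a block: over 21 pairs of pools the deviations of same-numbered arrays had a median r of -0.0003, and 4 exceeded 0.1.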

Additional observations from a re-analysis of the deposited data

Results flagged for a closer look

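Among the 5 inhibitory pools 1 lay apart from the others for 2 of the 8 members. Cntnap5a stood at 7.90 in I1b, and the nearest inhibitory pools, I3b and I1a, at 4.31, a gap of 0.934 of the whole range. Cntn3 stood at 6.95 in I1b with I3a nearest at 4.10, a gap of 0.718 of the range. These levels are among the values that chose the members, and both genes passed the filter on low values through E1, E2 and I1b alone, so the gaps are a description and nothing is read from them. Gaps over 0.71 of the range were flagged. That cut-off is meant for 5 unselected values, so no chance rate is given for these chosen genes. I1b also read 10.48 for Slc17a6, 5.50 for Mbp and 6.62 for Cnp, and the part of these in the result was not tested.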

How the results depend on the processing

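With 8 members and 1 pool per type, pools limit what can be said. In E against I the count of members called was 0 under every alternative that kept all pools. It was 0 to 1 when single pools were left out, where Cntnap5a was the 1 gene called without I1b, from which nothing is read. It was 1, again Cntnap5a, without pools I1b and I3a (2 called over all genes), a setting chosen after seeing the data. In I1 against I3 it was 1, Cntn5, with the pool as a random block, and likewise 1 with a replicate block added, against 0. In I1a against I1b it was 3, against 5, with a filter at 7, which left Cntn3 and Cntn4 out of the genes tested. It was 4, without Cntn4, with the mean of all probe sets of a gene and with values under 5 set to 5. After quantile normalization it was also 4, without Cntnap2. The replicate block gave 5 there and changed no call of a member in the pairs. In I3a against I3b the count was 0 without a filter, with a filter at 7 and with values under 5 set to 5, and 2 (Cntn3 and Chl1) after quantile normalization or median centring. Without I3a replicate 2 or I3b replicate 2 the 1 member called was Chl1 instead of Cntn3. No called member difference changed sign under the alternatives run.

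Over all genes, E against I called 0 to 6, against 1 and I1 against I3 called 0 to 114, against 0. With the mean of all probe sets of a gene, a filter at 7 and values under 5 set to 5, E1 against E2 called 187, 193 and 217 (against 326), I1a against I1b 309, 304 and 358 (against 579), and I3a against I3b 246, 218 and 256 (against 437). Signals near the floor limit Cntn3, Cntn4 and Cntnap5a in their low pools.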
